A study of Mus musculus with 8 samples.

Results

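Interferon-stimulated genes were examined in club cells, which secrete protective proteins onto the surface of the small airways, from lungs of mice with and without Atgl. The list holds 33 genes that cells switch on after interferon reaches them, and the members were set by name. For each gene the probe set annotated with that symbol alone was taken, and of several the brightest over the 8 arrays. On that rule 30 of the 33 members were measured, among 22180 genes in all, and 29 passed the level filter (a mean log2 signal above 5.18, the median of all probe sets). Mx1 lay below it. Oas1a and Gbp2 share their probe sets with a neighbour of the same family and Ifi44 had no probe set of its own in the annotation used, so these 3 are not analysed here.

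The Atgl KO/cTg group has 4 pools of 4 mice each (16 mice, 38 to 46 weeks old), and the wt/cTg group has 4 pools of 3 or 4 mice (14 mice, 41 to 48 weeks old). Atgl, now named Pnpla2, encodes adipose triglyceride lipase, which starts the breakdown of stored triglycerides. All mice of both groups carry cTg, which the labels do not expand. In published mice of this name it is a transgene that expresses the lipase in heart muscle. The labels describe the Atgl KO/cTg cells as lacking ATGL and name no cell-type-specific driver of the deletion. Each array measured the RNA of 1 pool, and the arrays are numbered 1 to 4 within a genotype only to name them.

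Interferons are secreted proteins, of which types I and III are released by cells on sensing foreign nucleic acid. Type I and type III interferons act through Janus kinases on a complex that includes STAT2 and IRF9 and binds the interferon-stimulated response element (ISRE) in gene promoters. Interferon gamma acts on a different element, the gamma-activated site (GAS). The genes so induced encode the sensors, transcription factors and antiviral effectors of the response, and in the airway they are part of epithelial defence against viruses.

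Promoter windows from RefSeq (GRCm38.p6), 250 bases before to 50 bases after a gene's start, were at hand for 25 of the 33 members. They were searched on both strands for the letters GAAANNGAAA, the core of the ISRE, and TTCNNNGAA, the core of the GAS. The ISRE core was in a window of 13 of the 25 members (52.0%), against 3.99% of all 27025 genes with a window. The GAS core was in 6 of 25 (24.0%), against 9.55% of all genes, and in 1 member window the 2 motifs overlapped. A match is a run of letters and was not tested as a binding site. The windows of 4 members are shown because their levels carry the pool pattern described below or, for Irf1, lie outside the ISRE group. Capitals mark the ISRE core (either strand) in the first 3 and the GAS core in Irf1.
Isg15, chr4:156200769-156201068 (- strand): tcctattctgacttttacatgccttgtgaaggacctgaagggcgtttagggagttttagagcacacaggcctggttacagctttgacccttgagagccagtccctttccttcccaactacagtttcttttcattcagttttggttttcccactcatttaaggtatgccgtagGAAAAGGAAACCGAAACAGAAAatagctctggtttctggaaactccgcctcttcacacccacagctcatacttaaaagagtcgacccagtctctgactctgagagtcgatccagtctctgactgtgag
Ifit1, chr19:34640639-34640938 (+ strand): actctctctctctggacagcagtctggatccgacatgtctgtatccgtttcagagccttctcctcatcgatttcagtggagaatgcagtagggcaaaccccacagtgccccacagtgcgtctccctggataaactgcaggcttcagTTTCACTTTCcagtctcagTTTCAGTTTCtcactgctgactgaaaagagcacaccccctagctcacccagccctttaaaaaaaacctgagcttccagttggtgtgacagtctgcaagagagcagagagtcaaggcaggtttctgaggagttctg
Rsad2, chr12:26456403-26456702 (- strand): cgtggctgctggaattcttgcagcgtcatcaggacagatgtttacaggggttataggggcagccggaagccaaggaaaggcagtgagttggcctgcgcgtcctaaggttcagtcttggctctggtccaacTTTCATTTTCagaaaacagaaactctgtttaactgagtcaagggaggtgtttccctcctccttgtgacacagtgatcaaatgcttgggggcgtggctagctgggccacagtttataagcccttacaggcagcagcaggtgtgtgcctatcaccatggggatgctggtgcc
Irf1, chr11:53769764-53770063 (+ strand): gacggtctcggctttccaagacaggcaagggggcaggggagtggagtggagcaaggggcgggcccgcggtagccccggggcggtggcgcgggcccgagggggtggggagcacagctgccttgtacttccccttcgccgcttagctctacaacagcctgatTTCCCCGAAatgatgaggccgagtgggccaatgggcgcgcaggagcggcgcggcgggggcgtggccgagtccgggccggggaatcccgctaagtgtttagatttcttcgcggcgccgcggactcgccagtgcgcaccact
In Isg15, 3 overlapping matches begin 78, 72 and 66 bases before the start. In Ifit1 the matches begin 104 and 85 bases before it, in Rsad2 120 bases, and in Irf1 the GAS core begins 90 bases before it.

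The arrays were alike in scale, with medians of 5.12 to 5.24 on the log2 scale. Pnpla2 read 6.70 to 7.16 in the Atgl KO/cTg pools and 8.62 to 8.86 in the wt/cTg pools (difference -1.72, SE 0.11, limma adjusted p = 0.000116). Club cell markers were high in every pool (list mean 11.00 to 11.21 in the Atgl KO/cTg pools and 11.04 to 11.10 in the wt/cTg pools). Markers of leukocytes, alveolar type 2 cells and endothelium were also well represented. The alveolar type 2 list mean was 10.31 to 10.55 in the Atgl KO/cTg pools and 10.79 to 11.29 in the wt/cTg pools. In wt/cTg 2, wt/cTg 3 and wt/cTg 4 it was above the club cell list mean. Alveolar type 2 markers differed with genotype: 5 of 10 fell in Atgl KO/cTg in limma, among them Lamp3 (-1.53, adjusted p = 0.0294). That count was 0 with no variance trend, after quantile normalization, with the mouse number run as a block, and without any single array of Atgl KO/cTg 1, 3 or 4 or wt/cTg 2, 3 or 4. None of the leukocyte or club cell markers passed. All 8 tested neutrophil markers still lay above 0 (median 0.52), 4 of them at an unadjusted limma p under 0.05, beside 7.95% of all genes. The other leukocyte lists had signs both ways. All 10 fibroblast and smooth muscle markers lay below 0 (median -0.34), 4 of them at an unadjusted limma p under 0.05. All 9 tested ciliated cell markers lay above 0 (median 0.25), 2 of them at such a p. Endothelial markers had 3 above 0 and 7 below (median -0.30), and club cell markers 7 above and 3 below (median 0.07). None in these 4 lists passed after adjustment. In such mixed RNA fewer cells of a type and less RNA per cell cannot be told apart. Array wt/cTg 4 stood apart in Xist, the transcript of the inactive X chromosome (3.75, against 9.34 to 10.67 in the other 7 arrays). The spread and correlation of the members are given with all 8 arrays, and also without wt/cTg 1 and wt/cTg 4. Those 2 were left out because the members' mean was highest and lowest there among wt/cTg pools, not because of Xist.

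Interferon-stimulated genes did not differ detectably between Atgl KO/cTg and wt/cTg pools. None of the 29 tested members passed the limma threshold (adjusted p of 0.765 to 0.997), where 0.0991% of all 13112 genes did. None was called higher and none lower, beside 0.0153% and 0.0839% of all genes. None passed at an unadjusted p under 0.05 either, where 7.95% of all genes did. In none of the 30 measured members did the groups separate, as they did in 4.35% of all genes tested. The log2 differences, Atgl KO/cTg minus wt/cTg, ran from -0.24 to 0.21, with 11 members above 0 and 18 below. Their median was -0.05, beside -0.0073 over all genes tested. Missing the threshold does not show equal levels: the 95% intervals of 28 of 29 members lay within 1 log2 unit of 0, and those of 15 within 0.5.

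**Figure D1:**
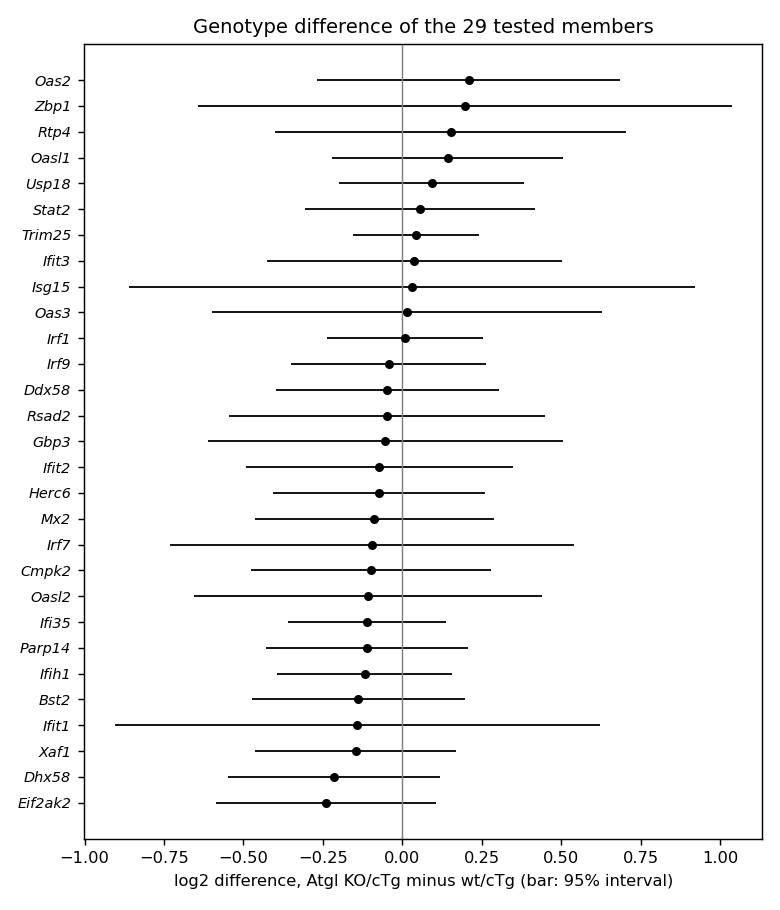
Log2 difference, Atgl KO/cTg minus wt/cTg, for each of the 29 tested members (horizontal axis), with 95% intervals from limma (n = 4 pools per genotype). Every interval includes 0. Isg15, Ifit1 and Zbp1 have the widest intervals, and Trim25 the narrowest.

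The 4 transcription factors of the response on the list had differences of -0.10 to 0.06. Irf7, the factor that amplifies interferon production, read 7.64, 8.20, 7.27 and 7.51 in the Atgl KO/cTg pools, against 8.71, 7.43, 7.53 and 7.33 in the wt/cTg pools. A single pool of each genotype stood high, Atgl KO/cTg 2 and wt/cTg 1, and the groups overlapped. The difference for Irf7 was -0.096 (SE 0.29, 95% interval -0.73 to 0.54, limma adjusted p = 0.966, exact permutation p = 0.8). Irf9, the DNA-binding part of the complex on the ISRE, read 7.32, 7.39, 7.15 and 7.29 in the Atgl KO/cTg pools, against 7.68, 7.44, 7.20 and 7.0 in the wt/cTg pools. Its spread was wider in wt/cTg, with wt/cTg 1 highest and wt/cTg 4 lowest, and the group means were 7.29 ± 0.10 in the Atgl KO/cTg pools and 7.33 ± 0.29 in the wt/cTg pools (SD, n = 4). Stat2, its partner, read 7.45, 7.82, 7.59 and 7.78 in the Atgl KO/cTg pools, against 8.07, 7.21, 7.65 and 7.51 in the wt/cTg pools. Again wt/cTg 1 was highest, while the lowest was wt/cTg 2, and the difference was 0.055 (SE 0.16, 95% interval -0.31 to 0.42, limma adjusted p = 0.966, exact permutation p = 0.8). Irf1, a factor induced chiefly by interferon gamma, read 7.62, 7.80, 7.67 and 7.46 in the Atgl KO/cTg pools, against 7.74, 7.59, 7.79 and 7.40 in the wt/cTg pools. It varied least of the 4, and its means were 7.64 ± 0.14 in the Atgl KO/cTg pools and 7.63 ± 0.17 in the wt/cTg pools (SD, n = 4).

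Isg15, a ubiquitin-like protein that is attached to other proteins, had the widest spread of all members. Its probe set (17434023) read 7.62, 8.28, 7.48 and 7.74 in the Atgl KO/cTg pools, against 9.10, 7.40, 7.85 and 6.66 in the wt/cTg pools. Pool wt/cTg 1 was above and wt/cTg 4 below every other pool, a 5.44-fold span on the linear scale within a single genotype. The genotype means were close, 7.78 ± 0.35 in the Atgl KO/cTg pools and 7.75 ± 1.02 in the wt/cTg pools (SD, n = 4), and the difference was 0.03 (SE 0.41, 95% interval -0.86 to 0.92, limma adjusted p = 0.993, exact permutation p = 0.943). Usp18, the protease that removes Isg15 from proteins and restrains the type I receptor, read 7.48, 7.87, 7.45 and 7.55 in the Atgl KO/cTg pools, against 7.79, 7.42, 7.49 and 7.28 in the wt/cTg pools. Here Atgl KO/cTg 2 was the highest pool and wt/cTg 4 the lowest. Its difference was 0.093 (SE 0.13, 95% interval -0.20 to 0.38, limma adjusted p = 0.907, exact permutation p = 0.514). Herc6, the ligase that attaches Isg15 in mice, differed by -0.073 and Trim25, a ubiquitin ligase that activates the RNA sensor encoded by Ddx58, by 0.043.

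Nucleic acid sensors and RNA-dependent enzymes included the members with the largest genotype differences, which were still within the spread between pools. Eif2ak2, the kinase that halts translation on double-stranded RNA, read 6.76, 6.92, 6.76 and 6.97 in the Atgl KO/cTg pools, against 7.51, 6.92, 7.22 and 6.72 in the wt/cTg pools. Its difference was -0.24 (SE 0.16, 95% interval -0.59 to 0.11, limma adjusted p = 0.765, exact permutation p = 0.343). No member had a smaller limma p, and the groups still overlapped. Dhx58, a helicase that tunes RNA sensing, read 5.71, 6.01, 6.05 and 5.97 in the Atgl KO/cTg pools, against 6.54, 5.84, 6.13 and 6.11 in the wt/cTg pools. The highest value was wt/cTg 1 and the lowest Atgl KO/cTg 1, and the difference was -0.21 (SE 0.15, 95% interval -0.55 to 0.12, limma adjusted p = 0.779, exact permutation p = 0.286). Oas2, an oligoadenylate synthetase that activates RNA decay, read 6.42, 7.07, 6.78 and 6.53 in the Atgl KO/cTg pools, against 7.07, 6.33, 6.57 and 5.99 in the wt/cTg pools. Atgl KO/cTg 2 and wt/cTg 1 were level at the top, wt/cTg 4 was lowest, and the difference was 0.21 (SE 0.22, 95% interval -0.27 to 0.69, limma adjusted p = 0.855, exact permutation p = 0.457).

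Zbp1, a sensor of nucleic acid in the Z conformation that can trigger cell death, read 8.70, 9.51, 8.81 and 8.46 in the Atgl KO/cTg pools, against 9.74, 8.30, 9.04 and 7.61 in the wt/cTg pools. It followed the same order as Isg15 at the ends, with wt/cTg 1 on top and wt/cTg 4 lowest, 4.36-fold apart. Its difference was 0.20 (SE 0.38, 95% interval -0.64 to 1.04, limma adjusted p = 0.942, exact permutation p = 0.771). Oasl2, an oligoadenylate synthetase-like protein, read 7.26, 7.70, 7.37 and 7.61 in the Atgl KO/cTg pools, against 8.46, 7.43, 7.46 and 7.02 in the wt/cTg pools. Only wt/cTg 1 read above 8, and the means were 7.48 ± 0.20 in the Atgl KO/cTg pools and 7.59 ± 0.61 in the wt/cTg pools (SD, n = 4). Among the other sensors the differences were, for Ifih1 (MDA5), -0.12, for Ddx58 (RIG-I) -0.047, for Oas3 0.014 and for Oasl1 0.14. Of the 9 tested members of this group 4 lay above 0 and 5 below.

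Antiviral effectors had 1 of 8 tested members above 0 and 7 below, with a median of -0.08 and none past the threshold. Ifit1, which binds viral RNA that lacks the host's cap methylation, read 7.27, 7.52, 7.54 and 7.46 in the Atgl KO/cTg pools, against 8.82, 7.51, 7.39 and 6.63 in the wt/cTg pools. The 4 Atgl KO/cTg pools lay close together, while wt/cTg 1 and wt/cTg 4 lay above and below all of them. The difference was -0.14 (SE 0.35, 95% interval -0.90 to 0.62, limma adjusted p = 0.953, exact permutation p = 0.8286). Rsad2 (viperin), which makes a chain-terminating nucleotide, read 5.40, 6.0, 5.62 and 5.23 in the Atgl KO/cTg pools, against 6.23, 5.58, 5.49 and 5.14 in the wt/cTg pools. Pools Atgl KO/cTg 2 and wt/cTg 1 were the highest of their genotypes, and the means were 5.56 ± 0.33 in the Atgl KO/cTg pools and 5.61 ± 0.45 in the wt/cTg pools (SD, n = 4). Mx1, a GTPase that is defective in many laboratory mouse strains, read 4.65, 4.58, 4.70 and 4.56 in the Atgl KO/cTg pools, against 4.75, 4.67, 4.76 and 4.44 in the wt/cTg pools. It lay below the level filter in every pool and was not tested in limma, and the exact permutation p was 0.743.

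Ifit3, which stabilises Ifit1 on RNA, departed from the pattern of the others. It read 7.93, 7.11, 7.65 and 7.18 in the Atgl KO/cTg pools, against 7.96, 7.22, 7.35 and 7.19 in the wt/cTg pools. Atgl KO/cTg 2, high for most members, was the lowest pool of all for Ifit3, and Atgl KO/cTg 1 was nearly as high as wt/cTg 1. The difference was 0.038 (SE 0.21, 95% interval -0.43 to 0.50, limma adjusted p = 0.986, exact permutation p = 1). Ifit3b, a close copy of Ifit3, lay below the level filter at 4.97 ± 0.17 in the Atgl KO/cTg pools and 5.18 ± 0.45 in the wt/cTg pools (SD, n = 4). Whether the probes separate the copies was not tested. The remaining effectors were Ifit2 (-0.072), Mx2 (-0.088), Cmpk2 (-0.099), Bst2, which tethers virus particles to the cell (-0.14), and the GTPase Gbp3 (-0.053).

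Of the other members, Xaf1, a promoter of apoptosis, read 8.53, 8.77, 8.76 and 8.61 in the Atgl KO/cTg pools, against 9.26, 8.55, 8.84 and 8.59 in the wt/cTg pools. Its top value was again wt/cTg 1, and the difference was -0.15 (SE 0.14, 95% interval -0.46 to 0.17, limma adjusted p = 0.844, exact permutation p = 0.457). Ifi35, which has 2 probe sets, read 8.55, 8.62, 8.78 and 8.58 in the Atgl KO/cTg pools, against 8.82, 8.45, 8.99 and 8.72 in the wt/cTg pools in the brighter of them. There wt/cTg 3 was highest and wt/cTg 2 lowest, and the difference was -0.11 (SE 0.11, 95% interval -0.36 to 0.14, limma adjusted p = 0.852, exact permutation p = 0.4). Rtp4, a chaperone of membrane receptors, was at 0.15 and Parp14, an ADP-ribosyltransferase, at -0.11.

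**Figure D2:**
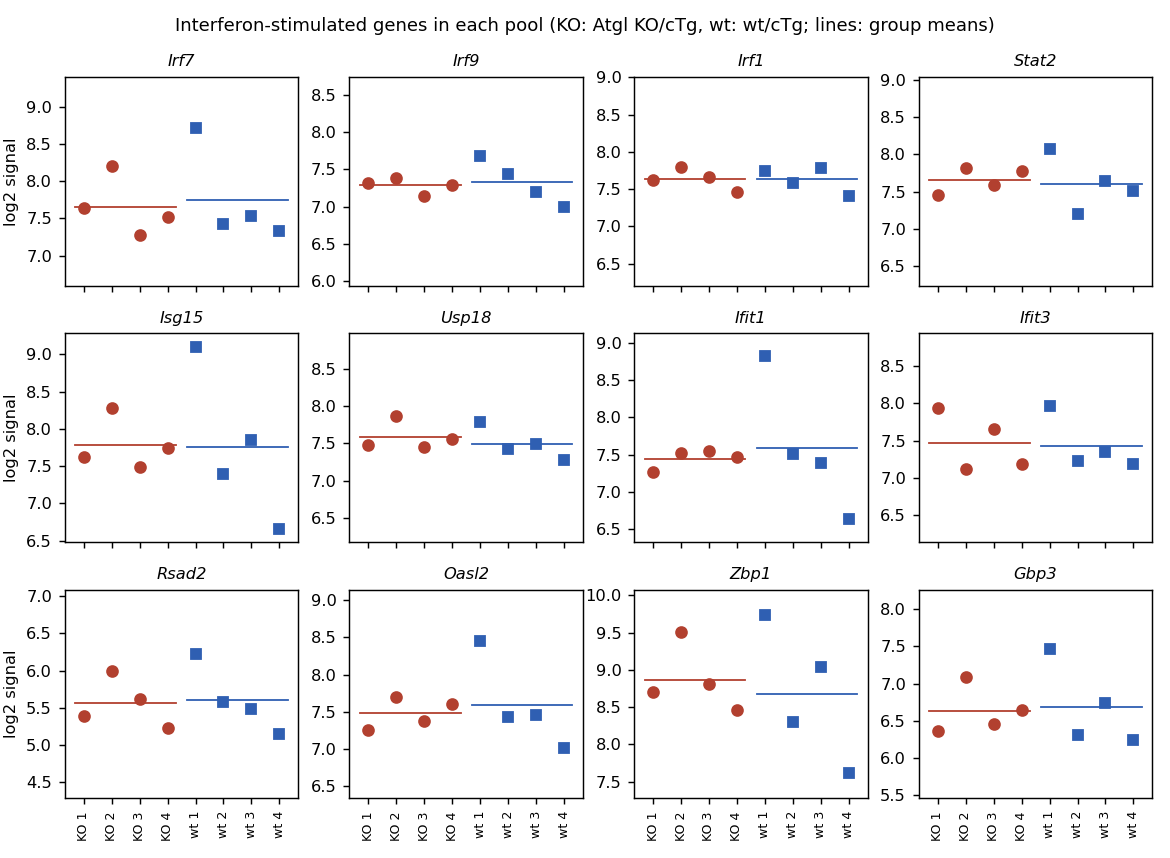
Log2 signal (vertical axes, all of equal span) of 12 members in the 4 Atgl KO/cTg pools (red circles) and the 4 wt/cTg pools (blue squares), with lines at the group means. The group means lie close together in each panel. wt/cTg 1 is the highest of the 8 pools in 10 of the panels, all but Irf1 and Usp18.

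The members varied between pools of the same genotype, and mostly together. The member mean (the mean log2 signal of the 29 tested members) was 7.24, 7.60, 7.33 and 7.29 in the Atgl KO/cTg pools and 7.94, 7.26, 7.37 and 7.02 in the wt/cTg pools. By group it was 7.36 ± 0.16 over the Atgl KO/cTg pools and 7.40 ± 0.39 over the wt/cTg pools (SD, n = 4). The high pools were therefore Atgl KO/cTg 2 and wt/cTg 1, and the low pool wt/cTg 4. Both end pools, wt/cTg 1 and wt/cTg 4, were the ones made from 3 mice.

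Pool wt/cTg 1 was the highest of the 8 for 23 of 29 members, against 20.5% of all genes tested, and Atgl KO/cTg 2 for 5, against 22.9% of all genes. Pool wt/cTg 4 was the lowest for 17 of 29, against 15.4% of all genes. Every tested member was higher in wt/cTg 1 than in wt/cTg 4, by a median of 0.77 log2 units, beside 0.07 over all genes. These 2 pools held 44.8% and 24.5% of the members' within-genotype sum of squares, and 13.4% and 14.5% of that of all genes.

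**Figure D3:**
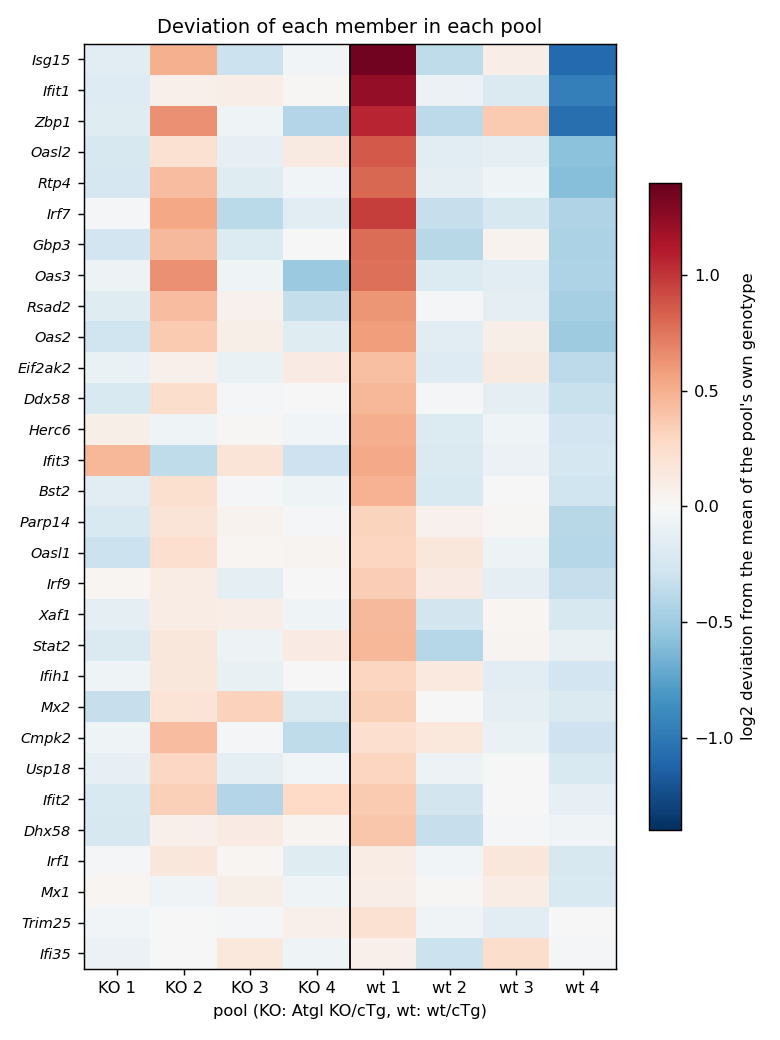
Deviation of each of the 30 measured members (rows, ordered by the gap between wt/cTg 1 and wt/cTg 4) from the mean of the pool's own genotype, in log2 units, for the 4 Atgl KO/cTg pools (left) and the 4 wt/cTg pools (right). Nearly the whole wt/cTg 1 column is above 0 and nearly the whole wt/cTg 4 column below, while Atgl KO/cTg 2 is the high column on the left.

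The spread between pools was wider for members than for most genes. The within-genotype SD had a median of 0.28 over members and 0.17 over all genes tested, and 27 of 29 members lay above the all-gene median. Isg15 (0.77), Zbp1 (0.72), Ifit1 (0.65) and Irf7 (0.53) spread most, and Trim25 (0.12) least. The spread was larger in wt/cTg than in Atgl KO/cTg for 25 of 29 members, whereas 45.0% of all genes spread more in wt/cTg. Median SDs of the members were 0.20 in the Atgl KO/cTg pools and 0.35 in the wt/cTg pools, beside 0.16 and 0.15 over all genes. Without wt/cTg 1 and wt/cTg 4, picked for their end values of the member mean, the median SD of members within genotypes was 0.21. Such a choice by itself lowers the members' spread, so the fall is no separate result. The median wt/cTg SD was then 0.16 over the 2 remaining pools, and 11 of 29 members spread more in wt/cTg, beside 32.4% of all genes. The difference in spread between genotypes was not tested.

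Correlation across pools was high among members. Over the 8 pools, with genotype means removed, the 406 pairs of members had a median Pearson r of 0.73, and 78.8% of pairs exceeded 0.5. Over all pairs of genes tested the median was 0.083, and 17.4% exceeded 0.5. A single component held 81.7% of the members' within-genotype variance, beside 29.2% for all genes. Without wt/cTg 1 and wt/cTg 4 it held 61.2%, beside 37.7%. The closest pairs were Bst2 with Gbp3 (r = 0.98) and Isg15 with Rtp4 (r = 0.98). The most opposed pair was Ifih1 with Ifi35 (r = -0.30). All these values share the same 8 libraries and are descriptions only.

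The correlation was lower without the 2 end pools of wt/cTg. Without wt/cTg 1 and wt/cTg 4 the median r was 0.44 over 6 pools, beside 0.094 for all genes, and 45.3% of pairs exceeded 0.5. The share of all gene pairs above 0.5 was not computed over these 6 pools. Leaving out the 2 end pools was chosen after the data were seen, from the members' own means, which by itself tends to lower their r. Within the Atgl KO/cTg pools alone the median r was 0.59, and within wt/cTg alone 0.87 (n = 4 each), where leaving out the 2 end pools would leave 2. The median r was therefore above 0 within each genotype, but no value over all genes was computed within a genotype to set beside it.

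**Figure D4:**
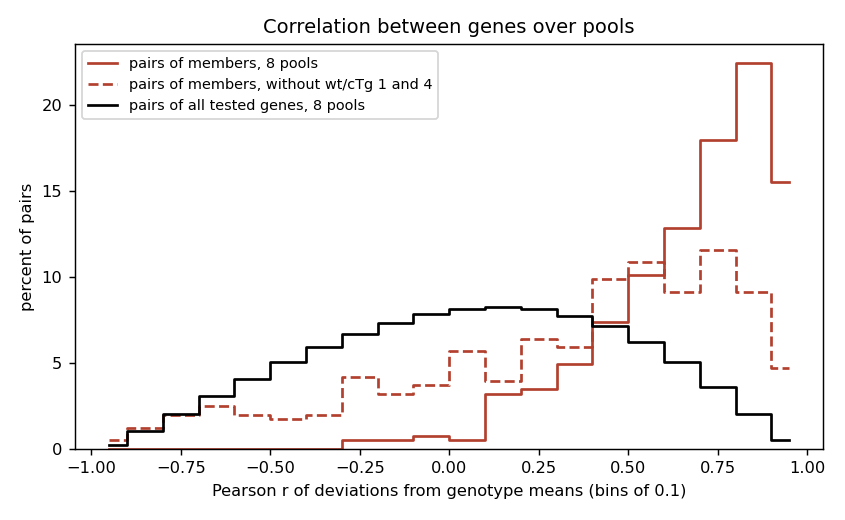
Percent of gene pairs (vertical axis) by Pearson r of their deviations from the genotype means (horizontal axis, bins of 0.1). Member pairs over 8 pools (solid red) peak above 0.8, and member pairs without wt/cTg 1 and 4 (dashed red) are flatter. Pairs of all genes tested over 8 pools (black) centre near 0.

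Members differed in how closely they followed the rest. The r of a member with the mean of the other members exceeded 0.8 for 19 of 29, led by Rtp4 (0.99), Bst2 (0.98), Isg15 (0.98), Oasl2 (0.96) and Oas2 (0.96). It was lowest for Ifi35 (0.27), Ifit3 (0.38) and Trim25 (0.58). Without wt/cTg 1 and wt/cTg 4 Rtp4, Bst2 and Isg15 stayed at 0.94, 0.96 and 0.88, whereas Ifit1 dropped to 0.37, against 0.92 in all 8 pools. Ifit3 (-0.65), Herc6 (-0.38) and Trim25 (-0.25) then ran against the rest.

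The ISRE letters shown above can be set beside these values. The 11 tested members with the ISRE core in their window had a median gap between wt/cTg 1 and wt/cTg 4 of 0.79 log2 units (0.56 to 2.44). The 11 tested members whose windows lacked it had a median gap of 0.67 (0.10 to 1.43). The ranges overlapped widely, and Oasl2 (1.43) and Irf7 (1.38) had wide gaps without the letters in this window. The median genotype differences were -0.05 and -0.07 in these sets. The median r with the mean of the other members was 0.92 with the core and 0.79 without it. The median within-genotype SD was 0.38 with it and 0.25 without. Differences between the 2 sets were not tested.

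No other gene of the pathway lists passed either. Of 6 further lists with 102 genes, 90 were measured, 77 tested and 0 passed in limma, with 5 (6.49%) at an unadjusted p under 0.05, beside 7.95% of all genes. These lists, like the members, were drawn up with earlier results of these data known. Interferon ligands were mostly below the level filter: Ifnb1 read 3.06 in the Atgl KO/cTg pools and 2.88 in the wt/cTg pools, and Ifng 4.99 and 5.19. Of the 4 ligands tested, Ifna4 was at 0.13, Ifna1 at -0.07, Ifnl2 at -0.12 and Ifnl3 at -0.13.

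Among 10 tested receptors, Janus kinases and STATs, 4 lay above 0 and 6 below (median -0.02). Ifnar1, a subunit of the type I interferon receptor, was at -0.18 (limma adjusted p = 0.615), Tyk2, a Janus kinase, at 0.19, Il10rb at 0.13 and Ifngr1 at -0.08. Upstream sensors and adaptors had 4 of 13 above 0 (median -0.06). There Irf8, a myeloid transcription factor, was at -0.36 (limma adjusted p = 0.6), Tlr3, a sensor of double-stranded RNA, at -0.25 (0.546), Tlr8 at -0.29 and Ikbke at 0.33. Among 9 negative regulators Pias1, a SUMO ligase, was at -0.27 (limma adjusted p = 0.485), Socs3 at 0.18, Samhd1 at -0.07 and Irf2 at -0.05.

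Further type I induced genes had 8 of 24 tested above 0 (median -0.04). Ifi204, a sensor of DNA, was at -0.56 (limma adjusted p = 0.551), Isg20, an exonuclease, at 0.24, Slfn5 at -0.17 and Ifitm1 at 0.20. Genes induced chiefly by interferon gamma had 8 of 17 above 0 (median -0.01), with Irgm1 at -0.26, Ciita, the activator of MHC class II genes, at -0.16, Irgm2 at -0.19 and Gbp7 at -0.16. The mean of the gamma list was highest in wt/cTg 3 (7.91) and Atgl KO/cTg 2 (7.86), and lowest in wt/cTg 4 (7.09). The mean of the further type I list was highest in wt/cTg 1 (8.10) and lowest in wt/cTg 4 (7.50), as for the members. Its r with the member mean was 0.93 over 8 pools and 0.47 without wt/cTg 1 and wt/cTg 4. In the same order r was 0.94 and 0.98 for negative regulators, and 0.76 and 0.875 for the gamma list. For receptors, Janus kinases and STATs it was 0.81 and 0.82, for upstream sensors and adaptors 0.76 and 0.63, and for ligands -0.07 and 0.61.

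Some leukocyte marker lists had the same end pools as the members, and others did not. The list mean of T and NK cell markers (12 of 14 measured) ran from 7.65 to 8.16 in the Atgl KO/cTg pools and 7.52 to 8.23 in the wt/cTg pools, highest in wt/cTg 1 and lowest in wt/cTg 4. B and plasma cell markers (8 of 9) ran from 9.12 to 9.15 in the Atgl KO/cTg pools and 8.63 to 9.34 in the wt/cTg pools, with the same ends. Plasmacytoid dendritic cell markers (9 of 10), of a cell type that makes much type I interferon, ran from 7.19 to 7.75 in the Atgl KO/cTg pools and 7.16 to 7.60 in the wt/cTg pools. They were highest in Atgl KO/cTg 2 and lowest in wt/cTg 4.

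Monocyte markers (10 of 10) ran from 8.65 to 9.31 in the Atgl KO/cTg pools and 8.71 to 9.17 in the wt/cTg pools, and macrophage markers (13 of 14) from 8.40 to 8.66 and 8.43 to 8.61. Neutrophil markers (10 of 10) ran from 7.37 to 8.22 and 7.20 to 7.75. Monocyte markers were highest in Atgl KO/cTg 2 and lowest in Atgl KO/cTg 4, and macrophage markers highest in Atgl KO/cTg 3 and lowest in Atgl KO/cTg 1. Neutrophil markers were highest in Atgl KO/cTg 2 and lowest in wt/cTg 3. The r of these 6 leukocyte lists with the member mean over 8 pools was 0.46 to 0.84, and 0.10 to 0.90 without wt/cTg 1 and wt/cTg 4. Without those pools it fell from 0.66 to 0.16 for T and NK cells and from 0.84 to 0.10 for B cells. It was also lower for neutrophils (0.61 to 0.49) and macrophages (0.46 to 0.42). It rose for plasmacytoid dendritic cells (0.64 to 0.90) and monocytes (0.64 to 0.73). Club cell markers gave -0.19 over 8 pools and -0.86 without wt/cTg 1 and wt/cTg 4. Alveolar type 2 markers gave -0.70 over 8 pools and 0.57 without those 2, so the sign rests on them. Endothelial markers, highest in wt/cTg 4 (9.39), gave -0.41 and -0.76. Of the measured leukocyte markers 4 lay below the level filter: Ngp (5.17 in the Atgl KO/cTg pools and 4.87 in the wt/cTg pools), Camp (4.96 and 4.36), Ccr9 (4.97 and 4.90) and Pacsin1 (5.06 and 5.13). The part of these cells in the pool pattern was not tested.

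**Figure D5:**
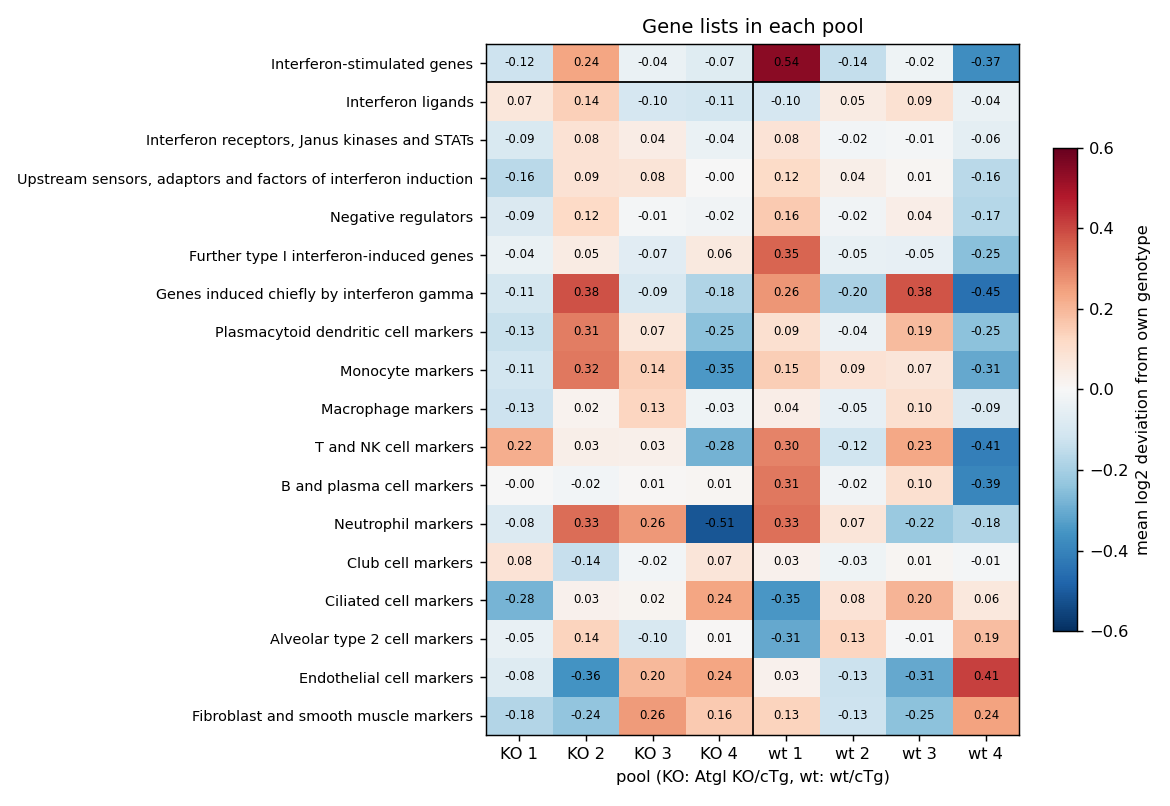
Mean log2 deviation from the pool's own genotype for the members (top row) and 17 further gene lists (rows) in the 4 Atgl KO/cTg pools (left) and the 4 wt/cTg pools (right). The members are above 0 in wt/cTg 1 and below 0 in wt/cTg 4, and so are most of the further lists, among them every leukocyte list. The ligand, ciliated, alveolar type 2, endothelial and fibroblast lists do not have this pair of signs. Club cell markers stay within 0.14 of 0 in every pool.

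The sign of the genotype difference turned with the pools compared. The titles number the mice, and 3 runs of neighbouring numbers hold both genotypes, though the labels do not call them sets. In the first, the mean of Atgl KO/cTg 1 and 2 against wt/cTg 1, all 29 members lay below 0 (median -0.48, beside -0.09 over all genes). Of all genes 35.67% lay above 0 there. For Atgl KO/cTg 3 against wt/cTg 2, 20 lay above 0 and 9 below (median 0.07, beside -0.01 over all genes, of which 47.98% lay above 0). For Atgl KO/cTg 4 against wt/cTg 4, 23 lay above 0 and 6 below (median 0.24, beside 0.06 over all genes, of which 60.97% lay above 0). The all-gene values thus leaned the same way as the members in the first and last run. With these runs as a block no member passed in limma.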

How the data were processed

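Arrays measured RNA of 8 pools of club cells, 4 per genotype, grouped by the genotype label. Per the labels' protocols, 50 ng of RNA was amplified with a NuGEN Ovation Pico WTA kit and labelled with biotin. The authors deposited a table of log2 signals, with a value for each probe set on each array, and it entered the tests unaltered. The unit was read from the values. The software and normalization were not given in the sources used here. Detection values were not used, so signal above background was not tested, and the number of arrays limits precision.

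Of 41345 probe sets, 23521 had 1 gene symbol, 1814 several and 16010 none. The brightest probe set of each gene was kept. Tests across genes ran in limma 3.58.1 (R 4.3.3) with a variance trend, two-sided, with Benjamini-Hochberg adjustment over 13112 genes and a threshold of 0.05. Exact two-sided permutation tests of single genes used the 70 arrangements of 8 arrays (smallest possible p 0.0286). Correlations and spreads are descriptions, with no test. Members, lists and naming rule were chosen with earlier results of these data known. Values by pool are given for transcription factors, main effectors and the members with the smallest p, largest difference and widest spread, and from other lists the 4 genes of smallest p. Ifnb1, Ifng, Ifit3b and the markers named were picked after their values were seen. The limma fit was checked on simulated data with independent noise for each gene, which lacks the variation that members shared between pools. Alternatives covered filter, variance prior, scaling, weights, probe sets, age, sex-linked transcripts, mouse number runs and left-out arrays. Figures used matplotlib 3.10.9.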

Additional observations from a re-analysis of the deposited data

Results flagged for a closer look

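Irf7 in wt/cTg replicate 1 read 8.71, far above the other wt/cTg pools, of which the nearest was 7.53. The gap of 1.18 was 0.857 of the range of the 4 pools, over Dixon's 95% critical value for 4 samples. It was the only such sample among 60 groups examined (30 members in 2 genotypes). Chance alone gives such a sample in about 1 in 20 groups, so 1 in 60 is not more than chance would give. The groups are also not independent, since the members varied together. The same pool was the highest of the 8 for 23 of 29 members.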

How the results depend on the processing

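No member passed the limma threshold under any of 19 alternatives, 18 planned and 1 added after seeing the data, and the smallest adjusted p of a member under any was 0.608. The median member difference ran from -0.16 to 0.11 and stayed within the SD between pools (0.30). The count of all genes called, 13 as reported, was 7 with no level filter, 1 with no variance trend, 1 after quantile normalization (0 higher, 1 lower), 23 with array weights, 7 with age as a covariate and 3 with the mouse number run as a block. It was 1 to 25 with 1 array left out, and 19 after median centring (1 higher, 18 lower), which moved the median of all genes by 0.03. The median SD of members was 0.22 to 0.30 with 1 array left out (0.22 without wt/cTg 1), and 0.21 without wt/cTg 1 and 4. The median pairwise r was 0.49 to 0.80 with 1 array left out (0.49 without wt/cTg 1), and 0.44 without wt/cTg 1 and 4. Of 547 member differences under the alternatives 60 changed sign or reached 0, and none of them passed. Without wt/cTg 1 and 4 the sign changed for Irf7 (0.18), Irf1 (-0.048), Ddx58 (0.0296), Oasl2 (0.038), Herc6 (0.05), Ifit2 (0.055), Rsad2 (0.028) and Gbp3 (0.12). It changed or reached 0 after median centring for Irf1 (-0.021), Oas3 (-0.016) and Isg15 (0.00), with the sex-linked score as a covariate for Irf1 (-0.023), Oas3 (-0.048) and Isg15 (-0.12), and with the run block for Oas3 (-0.17), Isg15 (-0.11), Trim25 (-0.021) and Ifit3 (-0.049). Over the fits with 1 array left out, a sign changed in the ranges of Irf7 (-0.28 to 0.23), Irf9 (-0.15 to 0.073), Irf1 (-0.065 to 0.068), Stat2 (-0.079 to 0.21), Ddx58 (-0.15 to 0.11), Zbp1 (-0.16 to 0.55), Oas3 (-0.20 to 0.27), Oasl2 (-0.30 to 0.18), Isg15 (-0.33 to 0.48), Usp18 (-0.0026 to 0.19), Herc6 (-0.16 to 0.098), Trim25 (-0.011 to 0.11), Ifit1 (-0.46 to 0.27), Ifit2 (-0.18 to 0.064), Ifit3 (-0.12 to 0.22), Mx2 (-0.20 to 0.024), Rsad2 (-0.20 to 0.16), Cmpk2 (-0.24 to 0.021), Bst2 (-0.23 to 0.025), Gbp3 (-0.20 to 0.21), Rtp4 (-0.047 to 0.42) and Xaf1 (-0.23 to 0.0032). The causes of these changes were not tested. Pools could not be paired by replicate number, since the labels carry none and do not say which pools form a set, so the only block tried was the mouse number run. Depth does not apply to arrays, and with no detection values the signal over background of dim members such as Mx1 is unknown.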

Other observations

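Among 13083 tested genes outside the list, the one whose deviations followed the member mean most closely over the 8 pools was Smc2, a condensin subunit of mitotic chromosomes (r = 0.993). It read 7.09, 7.37, 7.19 and 7.09 in the Atgl KO/cTg pools, against 7.59, 7.11, 7.14 and 6.90 in the wt/cTg pools. Adck2 (r = 0.991), Mcm6, a subunit of the replicative helicase (r = 0.987), Rnf213, a ubiquitin ligase that interferon induces (r = 0.987), and Ppp1r14d (r = 0.980) came next. Without wt/cTg 1 and wt/cTg 4 the r values of these 5 were 0.936 to 0.974. None of them passed in limma (adjusted p of 0.496 to 0.999). They were picked from all genes for their likeness over the same 8 arrays, so the r values are descriptions only.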
